A study of Mus musculus with 26 samples.

Results

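Branched-chain amino acid breakdown was followed through 10 genes in cold-exposed mouse brown fat, in total RNA and in RNA recovered with an antibody to IMP2. The genes are Bcat2, Bckdha, Bckdhb, Dbt, Bckdk, Ivd, Mccc1, Mccc2, Hibadh and Acadsb, members of this pathway that were selected on the measured ratio of IMP2 immunoprecipitate to total RNA, where Bcat2 and Ivd were high in knockout and in wild-type tissue. Of the 10, 6 are listed among the 1189 genes of the table that holds the knockout libraries, here called the knockout table. Dbt, Mccc2, Hibadh and Acadsb have no row there. All 10 are listed among the 9378 genes of the table that holds the IgG control, here called the IgG table, and all 10 passed the filter on low counts that left 8965 genes there. Where a symbol had several transcripts, only that with the most counts over the libraries was used; both transcripts of Bcat2 carry the same counts in every library.

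Leucine, isoleucine and valine are broken down in mitochondria. Bcat2 removes their amino group, and the branched-chain ketoacid dehydrogenase complex then commits the carbon skeletons to oxidation. Bckdha and Bckdhb encode the E1 alpha and beta subunits of that complex, Dbt its E2 core, and Bckdk the kinase that switches it off. After this shared step the paths divide: Ivd and the carboxylase made of Mccc1 and Mccc2 act on the leucine product, Acadsb on the isoleucine product and Hibadh on the valine product. Brown fat takes up branched-chain amino acids in the cold and burns them for heat, through mitochondria that carry the uncoupling protein Ucp1.

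IMP2, the product of Igf2bp2, binds mRNAs and takes part in the control of their lifetime and their translation. The series has 26 samples; the 12 from brown fat are used, and the 14 from liver were not analysed here. All brown fat came from males of 10 weeks on normal chow that were held at 4 °C overnight, on a C57Bl/6J background. Knockouts (KO) were Imp2-/- throughout the body and wild types (WT) were their Imp2+/+ littermates, from matings of heterozygotes. The knockout table has 2 libraries in each of 4 groups, which are KO IMP2 immunoprecipitate (libraries 23 and 24), WT IMP2 immunoprecipitate (21 and 22), KO total RNA (18 and 19) and WT total RNA (16 and 17). The IgG table has 1 WT IMP2 immunoprecipitate (25), 1 WT immunoprecipitate made with nonspecific IgG (26) and 2 WT total RNA libraries (15 and 20). Because knockout tissue lacks IMP2, its immunoprecipitate measures, as IgG does, what is recovered without the protein. Whether each library is another mouse is not stated in the labels, and p-values therefore measure only the spread between the libraries, which may be technical.

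A library of the knockout table held 780161 to 4915604 counts over its genes, while the IgG libraries and their total RNA held 1321361 to 3749075. The IMP2 gene could not be used to check the genotypes, since Igf2bp2 is not listed among the genes measured in KO tissue. Beside the IgG control it had 8 counts in the IMP2 immunoprecipitate, 16 in the IgG immunoprecipitate, and 20 and 16 in total RNA. Brown adipocyte markers were abundant in every library, with a summed level of 38500 to 49340 CPM (counts scaled to a common library total) for the 7 of 10 listed in the knockout table and 22320 to 28170 CPM for the 10 of 10 in the IgG table. Skeletal muscle markers were present too and differed between libraries. The 8 of 14 listed in the knockout table summed to 363.3 and 1384 CPM in KO immunoprecipitates and 1540 and 7249 CPM in WT immunoprecipitates, and to 596.5 and 2471 CPM in KO total RNA and 2701 and 10520 CPM in WT total RNA. None of the listed markers was at 0. In whole tissue, fewer cells of a type and less RNA per cell cannot be told apart.

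Levels are given as CPM of the gene counts after scaling by the trimmed mean of M-values. They are compared between libraries of 1 table for 1 gene, not between genes, because transcript lengths were not used. Nor are they compared between the tables. Each table was scaled over its own listed genes, 1189 in the knockout table and 9378 in the IgG table. Recovery means the log2 ratio of an immunoprecipitate to total RNA of the same genotype. The genes were chosen by recovery in the knockout table, so its values, and the difference between the genotypes in recovery, are described without a test.

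Bcat2, the first enzyme of the pathway, was chosen for its high recovery in the knockout table, in KO and in WT. Bcat2 had 876.1 and 545.3 CPM in KO immunoprecipitates, 910.5 and 855.0 CPM in WT immunoprecipitates, 343.0 and 278.1 CPM in KO total RNA and 429.7 and 331.1 CPM in WT total RNA. Every immunoprecipitate lay above every total RNA library, and the KO and WT ranges overlapped in immunoprecipitates and in total RNA. The mean levels ran from 310.5 ± 45.9 CPM in KO total RNA, through 380.4 ± 69.7 CPM in WT total RNA and 710.7 ± 234 CPM in KO immunoprecipitates, to 882.8 ± 39.3 CPM in WT immunoprecipitates (SD, n = 2 each). Recovery of Bcat2 was 1.20 ± 0.24 in KO and 1.21 ± 0.24 in WT (log2, SE), which placed it 4th in KO and 5th in WT of 1189 genes. The KO value moved with the library used, being 0.86 without library 23 and 1.52 without library 24. Recovery chose the genes, so nothing is read from ranks by recovery here or below.

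**Figure D1:**
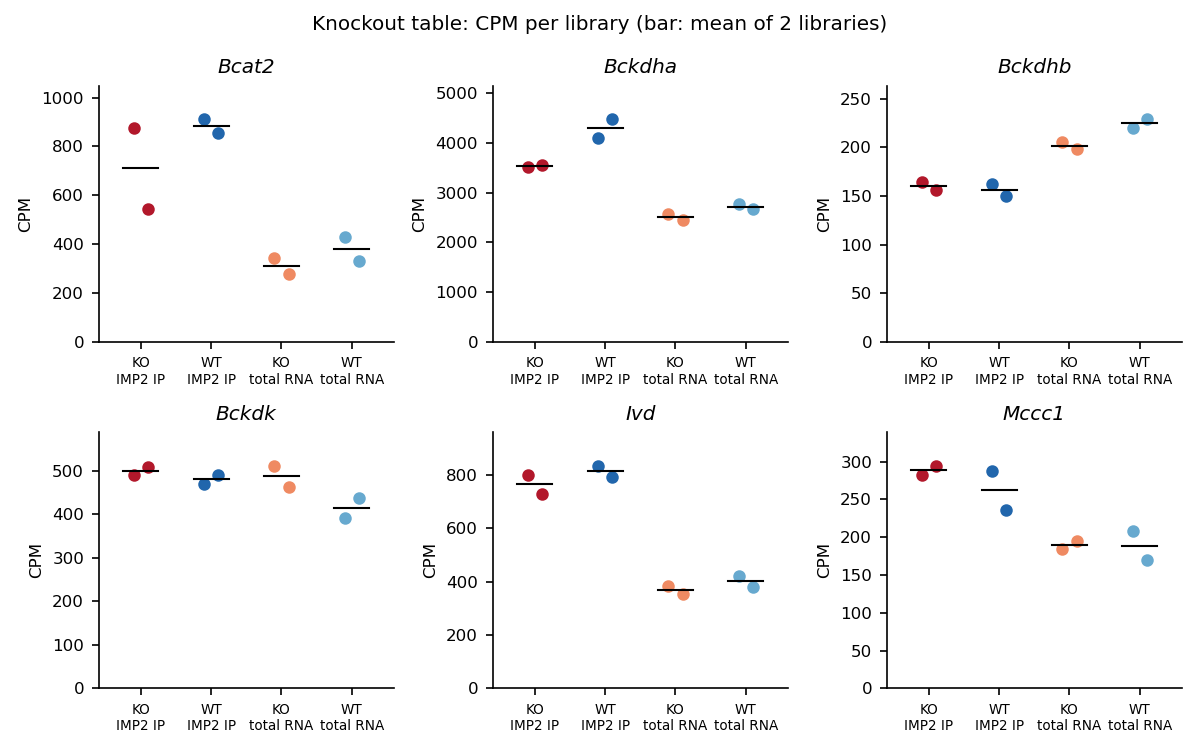
Levels of the 6 genes listed in the knockout table, in CPM on a linear axis from 0, with 1 point per library and a bar at the mean of the 2 libraries of each group. Bcat2 and Ivd lie higher in every immunoprecipitate than in every total RNA library, and Bckdhb lies lower.

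The dehydrogenase complex did not behave as a unit. Bckdha had 3510 and 3552 CPM in KO immunoprecipitates, 4109 and 4475 CPM in WT immunoprecipitates, 2578 and 2444 CPM in KO total RNA and 2768 and 2676 CPM in WT total RNA. Its partner Bckdhb had 164.9 and 155.8 CPM in KO immunoprecipitates, 162.4 and 150.4 CPM in WT immunoprecipitates, 205.6 and 197.9 CPM in KO total RNA and 220.5 and 228.9 CPM in WT total RNA. The E1 alpha mRNA was thus higher in each immunoprecipitate than in any total RNA library, and the E1 beta mRNA was lower in each. Recovery was 0.49 ± 0.11 in KO and 0.66 ± 0.11 in WT for Bckdha, ranks 137 and 77 of 1189, against -0.33 ± 0.11 in KO and -0.52 ± 0.12 in WT for Bckdhb, ranks 898 and 1032 (log2, SE). The kinase Bckdk stayed near 0, with a recovery of 0.04 ± 0.13 in KO and 0.21 ± 0.14 in WT. It had 491.0 and 509.3 CPM in KO immunoprecipitates, 470.6 and 489.8 CPM in WT immunoprecipitates, 511.2 and 462.5 CPM in KO total RNA and 390.5 and 438.4 CPM in WT total RNA.

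The unequal recovery of the E1 subunits can be read within each library as the number of Bckdha counts per Bckdhb count, a ratio that no scaling between libraries affects. It was 21.3 and 22.8 in KO immunoprecipitates, 25.3 and 29.8 in WT immunoprecipitates, 12.5 and 12.4 in KO total RNA, and 12.6 and 11.7 in WT total RNA. All 4 immunoprecipitates lay above all 4 total RNA libraries. These libraries entered the ratio that chose the genes, so their separation is only described. The 95% counting intervals of KO immunoprecipitates were 19.3 to 23.5 and 20.3 to 25.6, and those of WT immunoprecipitates were 21.9 to 29.5 and 24.7 to 36.1. Those of total RNA ended at or below 13.9 in every library, and counting intervals here and below cover counting error only. The libraries of the IgG table, which took no part in the choice of genes, gave 19.7 (17.0 to 22.9) for the IMP2 immunoprecipitate, 13.7 (12.6 to 14.9) for the IgG immunoprecipitate, and 9.28 (8.11 to 10.7) and 11.1 (9.96 to 12.3) for total RNA. The IMP2 value stood above the IgG value and both total RNA values with intervals that do not overlap. The IgG value in turn stood above both total RNA values, again without overlap.

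**Figure D2:**
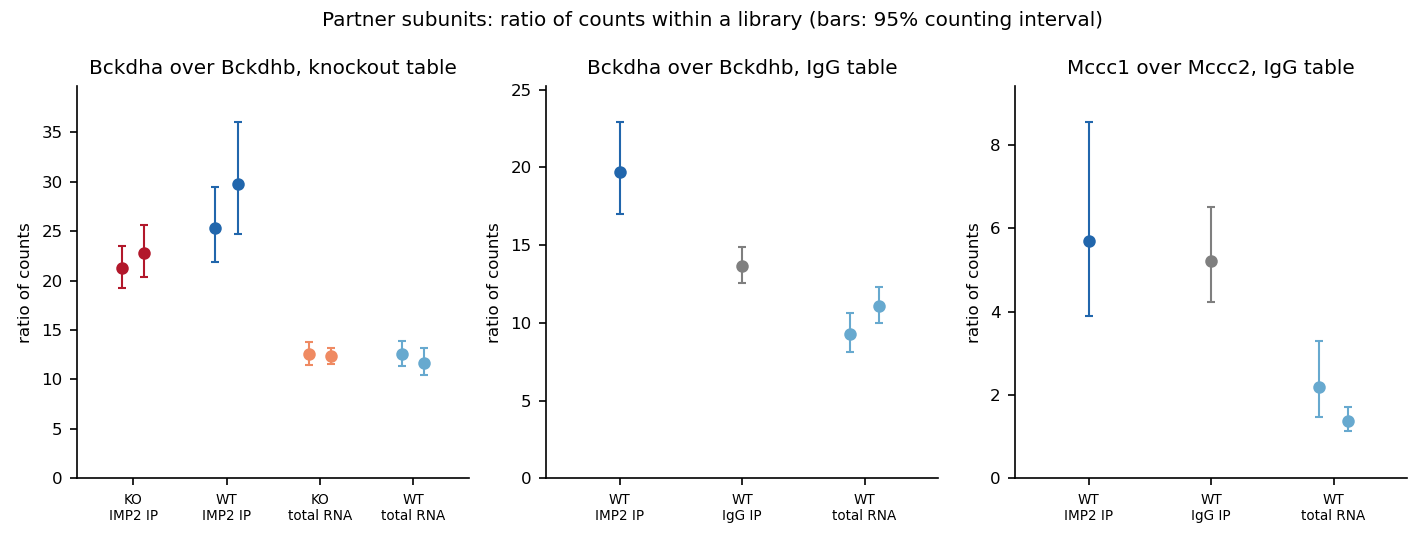
Ratio of the counts of partner subunits within each library, on linear axes from 0, with 95% counting intervals. Bckdha counts per Bckdhb count are 21.3 to 29.8 in the 4 immunoprecipitates of the knockout table and 11.7 to 12.6 in its 4 total RNA libraries; Mccc1 counts per Mccc2 count are 5.69 and 5.23 in the immunoprecipitates of the IgG table and 2.18 and 1.39 in its total RNA.

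Ivd, the acyl-CoA dehydrogenase of the leucine path, was the steadier of the highly recovered mRNAs. Ivd had 799.0 and 728.9 CPM in KO immunoprecipitates, 833.7 and 792.0 CPM in WT immunoprecipitates, 382.6 and 351.7 CPM in KO total RNA and 422.5 and 378.6 CPM in WT total RNA. All immunoprecipitates lay above all total RNA libraries, and KO and WT overlapped in both kinds of RNA. In rising order the means were 367.1 ± 21.9 CPM in KO total RNA, 400.6 ± 31.0 CPM in WT total RNA, 763.9 ± 49.6 CPM in KO immunoprecipitates and 812.9 ± 29.5 CPM in WT immunoprecipitates (SD, n = 2 each). Its recovery was 1.06 ± 0.13 in KO and 1.02 ± 0.13 in WT (log2, SE), ranks 8 and 13 of 1189. Ivd too was chosen for high recovery, so these ranks are only described.

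Mccc1, the biotin-carrying subunit of the next leucine enzyme, was recovered to a smaller extent, at 0.60 ± 0.15 in KO and 0.47 ± 0.15 in WT (log2, SE). It had 282.7 and 294.4 CPM in KO immunoprecipitates, 288.1 and 236.6 CPM in WT immunoprecipitates, 184.4 and 195.6 CPM in KO total RNA and 208.1 and 169.9 CPM in WT total RNA. Its immunoprecipitates lay above all total RNA libraries, as did those of Bcat2, Bckdha and Ivd. These are 4 of the 6 genes, where 17.7% of all 1189 genes lay so, and Bckdhb is the 1 that lay below, where 21.1% did; recovery chose the genes, and nothing is read from these shares. Of the 6 listed genes, 5 had a recovery above 0 in KO and in WT, with Bckdhb the exception. Over all 1189 genes, 588 lay above 0 in KO and 605 in WT. The median of the 6 was 0.55 in KO and 0.57 in WT, against -0.01 in KO and 0.01 in WT over all genes. Nothing is read from these counts and medians because recovery chose the genes.

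The wider pathway had 16 of 42 genes listed in the knockout table, a list that holds transporters, the isoleucine, valine and propionyl-CoA paths and ketone use as well as the genes above. Their median recovery was 0.39 in KO and 0.29 in WT (log2), and 13 of 16 lay above 0 in KO and 11 of 16 in WT. Over all 1189 genes, 588 lay above 0 in KO and 605 in WT. The 16 include the 6 genes above, which recovery chose, so nothing is read from these values. Oxct1, which activates ketone bodies, was recovered at 0.66 in KO and 0.50 in WT, and Pccb, a subunit of propionyl-CoA carboxylase, at 0.56 in KO and 0.37 in WT. Hsd17b10 and Acaa2 lay lowest among the isoleucine path genes, with Hsd17b10 at -0.38 in KO and -0.26 in WT and Acaa2 at -0.18 in KO and -0.33 in WT.

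KO and WT were first compared in total RNA. These libraries entered the ratio that chose the genes, so nothing is concluded from the p-values of this comparison. Bcat2 was 0.30 lower in KO than in WT on the log2 scale, with a 95% interval from -0.83 to 0.24 and an adjusted p of 0.634 (edgeR quasi-likelihood test). For Ivd the log2 ratio was -0.13 (-0.42 to 0.16), with an adjusted p of 0.745. Bckdha was at -0.12, Bckdhb at -0.16 and Mccc1 at 0.01, with adjusted p from 0.608 to 0.993. Both KO libraries lay below both WT libraries for 2 of the 6 genes, Bckdha and Bckdhb, as they did for 21.7% of all 1189 genes. Bckdk, the inhibitory kinase, had 511.2 and 462.5 CPM in KO against 390.5 and 438.4 CPM in WT. It was the 1 gene of the 6 with both KO libraries above both WT libraries, as 21.4% of all genes were, and its log2 ratio of 0.23 (-0.07 to 0.54) did not pass, with an adjusted p of 0.565. In this comparison edgeR called 0 of 1189 genes (0%), while 132 had an unadjusted p under 0.05 and DESeq2 called 18 higher and 17 lower, none of the 6 genes among them.

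KO and WT were then compared in IMP2 immunoprecipitates. These libraries, like the total RNA above, entered the ratio that chose the genes, so nothing is concluded from the p-values given here. Bckdha had 3510 and 3552 CPM in KO against 4109 and 4475 CPM in WT. It was the 1 gene of the 6 with both KO libraries below both WT libraries, as 26.9% of all 1189 genes were, and Bckdk was the 1 with both above, as 24.3% were. Its log2 ratio was -0.28 (-0.54 to -0.02), the adjusted p was 0.245, and it was the only one of the 6 genes with an unadjusted p under 0.05 in this contrast, where 10.3% of all genes were lower at that level. For Bcat2 the log2 ratio was -0.31 (-0.84 to 0.22) with an adjusted p of 0.502, and for Ivd it was -0.09 (-0.38 to 0.20) with an adjusted p of 0.729. Bckdhb was at 0.03, Bckdk at 0.06 and Mccc1 at 0.13. The edgeR test called 0 of 1189 genes (0%), 210 had an unadjusted p under 0.05, and DESeq2 called 33 higher and 61 lower, again none of the 6.

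The KO recovery minus the WT recovery is negative where less was recovered without IMP2. Because recovery in both genotypes chose the genes, this difference is described with no test. It was -0.02 ± 0.33 for Bcat2, 0.04 ± 0.18 for Ivd and -0.17 ± 0.16 for Bckdha (log2, SE). It was 0.19 ± 0.16 for Bckdhb, -0.17 ± 0.19 for Bckdk and 0.13 ± 0.21 for Mccc1. Over all 1189 genes the differences run from -0.81 to 0.30. The rule by which genes were listed is not given in the sources used here, and whether genes with a larger positive difference were left out by it cannot be told.

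Skeletal muscle markers differed between libraries of 1 genotype as well as between the genotypes. All 8 listed had a log2 ratio of KO to WT below 0, with a median of -2.01 in total RNA and -2.21 in immunoprecipitates, and edgeR called 0 of them, with 3 lower at an unadjusted p under 0.05 in total RNA and 2 in immunoprecipitates. Their summed level in KO library 19, at 2471 CPM, was close to that in WT library 16, at 2701 CPM. Bcat2 is also a muscle gene, and the part of muscle RNA in the KO values of Bcat2 was not tested.

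**Figure D3:**
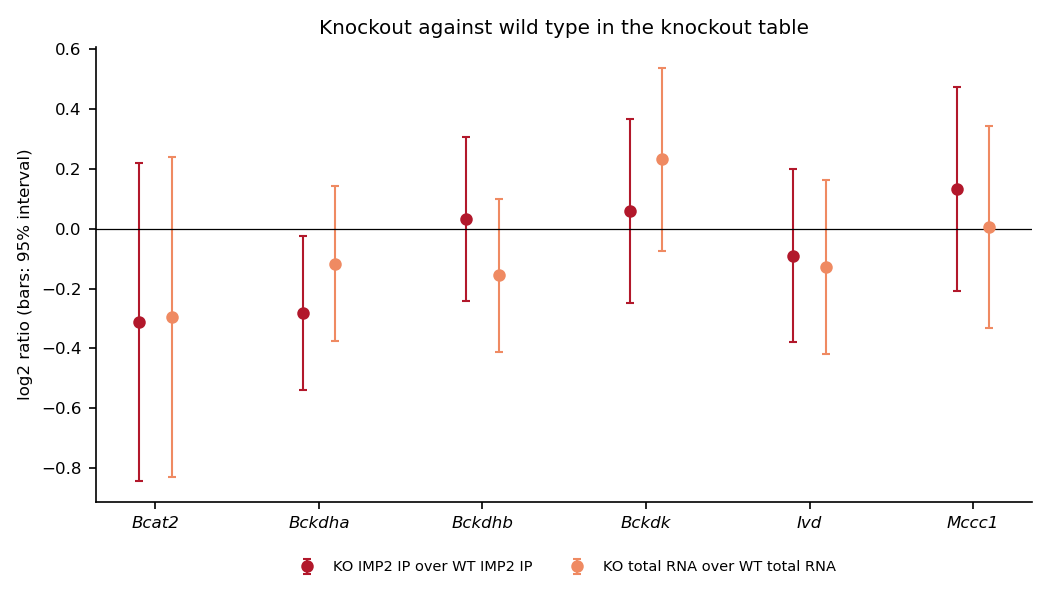
Log2 ratios of KO over WT for the 6 genes in immunoprecipitates and in total RNA, with 95% intervals from edgeR. All intervals cross 0 except that of Bckdha in immunoprecipitates, which runs from -0.54 to -0.02, with an adjusted p of 0.245 (edgeR). The libraries shown entered the ratio that chose the genes.

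The IgG table gave a second measurement of recovery, in libraries that the choice of genes did not use, and added the 4 genes that the knockout table lacks. It sets 1 IMP2 immunoprecipitate against 2 total RNA libraries, with 1 residual degree of freedom, and the lone library is assumed to vary as the total RNA pair does. Ivd had 305.5 CPM in the IMP2 immunoprecipitate and 203.1 CPM in the IgG immunoprecipitate, against 138.5 and 134.1 CPM in total RNA. Bcat2 had 200.2 CPM with IMP2 and 186.1 CPM with IgG, against 127.3 and 88.6 CPM in total RNA. For both genes each immunoprecipitate lay above both total RNA libraries, and for Bcat2 the IgG and IMP2 levels were close. The IMP2 library lay above both total RNA libraries for 6 of the 10 genes and below both for 3, where 34.2% of all 8965 genes lay above and 35.6% below. The IgG library lay above both for 5 of 10 and below both for 3, where 37.9% lay above and 36.4% below.

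Against total RNA, the IMP2 immunoprecipitate was higher by 1.16 ± 0.39 for Ivd, 1.01 ± 0.41 for Mccc1, 0.90 ± 0.40 for Bcat2 and 0.90 ± 0.40 for Bckdha (log2, SE). None passed, with adjusted p of 0.159, 0.367, 0.471 and 0.479 in that order (edgeR quasi-likelihood test). At an unadjusted p under 0.05 these 4 of 10 were higher, where 2.60% of all 8965 genes were. After adjustment 0 of 10 were higher, where 0.0446% of all genes were called, that is 4 genes. Acadsb was at 0.58 ± 0.39, Bckdk at 0.04 ± 0.40, Bckdhb at -0.07 ± 0.41, Hibadh at -0.10 ± 0.42 and Mccc2 at -0.81 ± 0.50, and none of these passed. Mccc2 rested on library 20, and without it the log2 ratio was -0.09 with IMP2 and -0.10 with IgG, as values with no test. The median over the 10 genes was 0.31, against -0.03 over all genes tested.

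**Figure D4:**
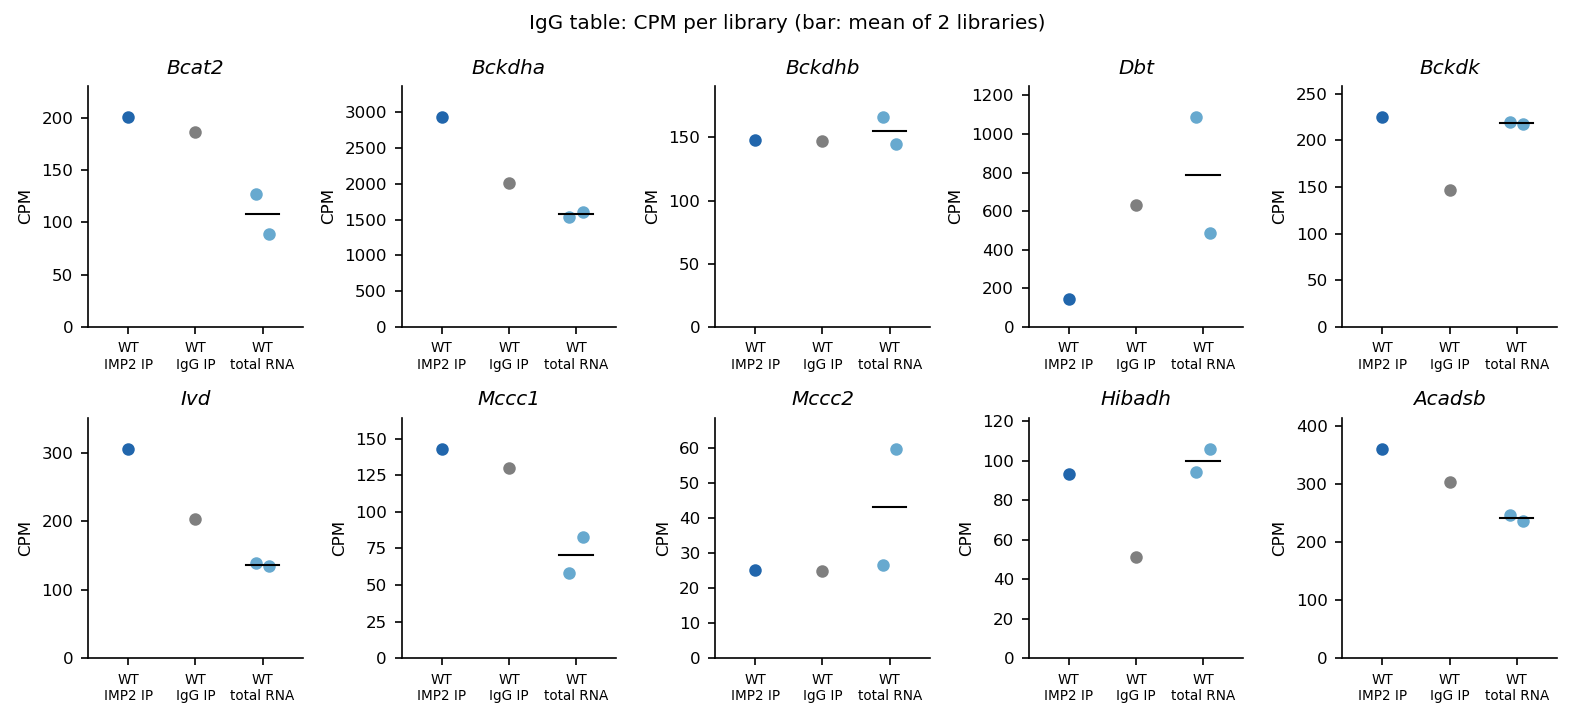
Levels of all 10 genes in the IgG table, in CPM on linear axes from 0, with 1 point per library and a bar at the mean of the 2 total RNA libraries. Dbt has 146.1 CPM in the IMP2 immunoprecipitate, below 629.2 CPM with IgG and 1086 and 484.7 CPM in total RNA.

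Dbt, the E2 core of the dehydrogenase complex, had less RNA with IMP2 than in total RNA, and its adjusted p was the only one of the 10 under 0.05. It had 186 counts in the IMP2 immunoprecipitate, 2580 in the IgG immunoprecipitate, and 1545 and 1280 in total RNA, or 146.1, 629.2, 1086 and 484.7 CPM. The IMP2 library lay below the other 3, and the total RNA libraries differed from each other by 2.24-fold. Relative to total RNA, Dbt fell by 2.42 ± 0.46 on the log2 scale in the IMP2 immunoprecipitate, with a 95% interval from -3.33 to -1.52 and an adjusted p of 0.000259 (edgeR; 0.015 with DESeq2). That p assumes that the lone IMP2 library varies as the total RNA pair does, with 1 residual degree of freedom. The fit draws the spread of each gene towards that of all genes. The 2.24-fold difference between the total RNA libraries of Dbt thus counts only in part. The p is no measure of how IMP2 immunoprecipitates vary. In this direction 0.859% of all genes were called. With library 15 left out the log2 ratio was -1.72, and with library 20 left out it was -2.90, both as values with no test. Skeletal muscle markers, all 14 listed, summed to 9991 CPM in the IMP2 library, 6886 CPM in the IgG library, and 18770 and 10190 CPM in total RNA, where Dbt also was highest in library 15; their part in the result was not tested.

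With IgG alone, 5 of the 10 genes had a log2 ratio to total RNA above 0 and 5 below, where 4452 of all 8965 genes lay above. Against total RNA, the IgG immunoprecipitate was at 0.87 ± 0.40 for Mccc1 and 0.79 ± 0.39 for Bcat2 (log2, SE), close to their values with IMP2. It was at 0.58 ± 0.39 for Ivd and 0.36 ± 0.41 for Bckdha, below theirs. Hibadh, which had 51.5 CPM with IgG against a mean of 100.1 ± 8.36 CPM in total RNA (SD, n = 2), was at -0.96 ± 0.43, with an adjusted p of 0.264. Acadsb was at 0.33, Bckdhb at -0.08, Bckdk at -0.58 and Mccc2 at -0.83. Dbt was at -0.32 and changed sign with the library used, at 0.37 without library 15 and -0.78 without library 20. None of the 10 was called in either direction by edgeR or by DESeq2, which gave no adjusted p for Mccc2, where 0.480% of all genes were called higher and 1.53% lower. At an unadjusted p under 0.05, 2 of 10 were higher, against 5.84% of all genes, and 1 of 10 was lower, against 8.58%.

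**Figure D5:**
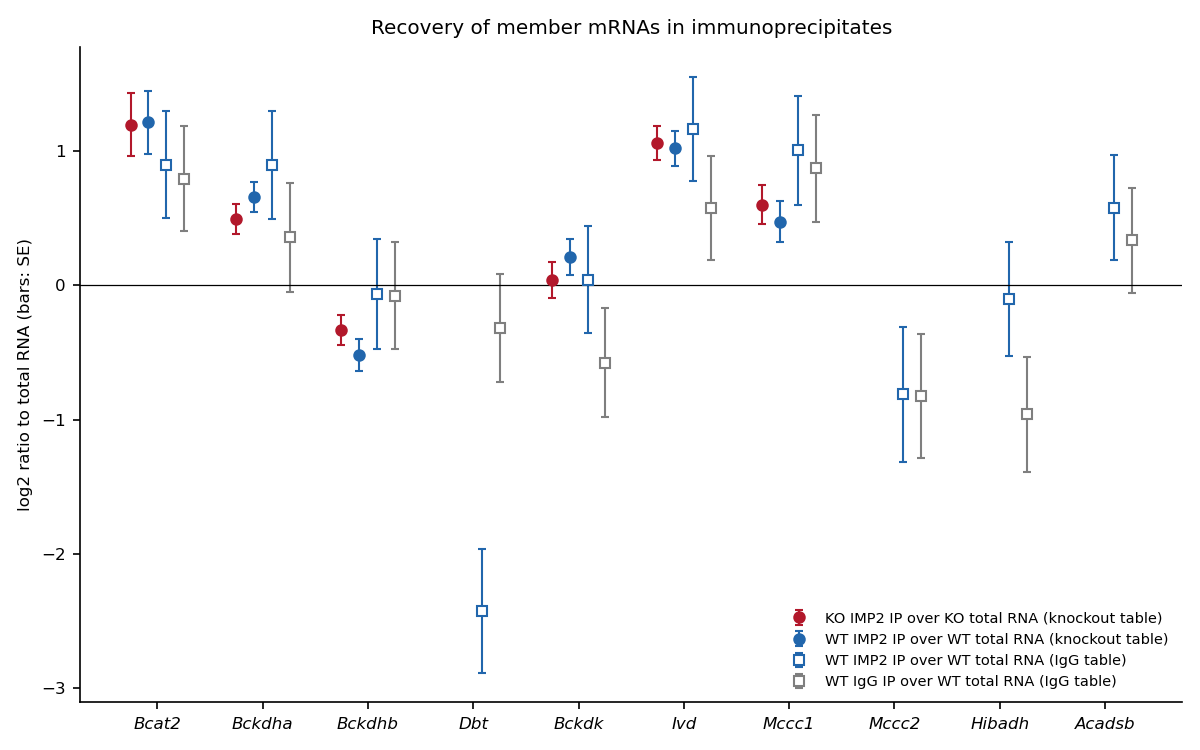
Log2 ratio of each immunoprecipitate to total RNA, with SE, in the knockout table (filled) and in the IgG table (open). Bcat2 lies between 0.79 and 1.21 in all 4 ratios, Ivd lies at 1.02 to 1.16 with the IMP2 antibody and at 0.58 with IgG, and Dbt lies at -2.42 with IMP2 and -0.32 with IgG.

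The IMP2 and IgG immunoprecipitates were set against each other directly as single libraries, with counting intervals and no test. The intervals cover neither the spread between immunoprecipitates nor the scaling. With scaling by library size alone, the median of all genes was -0.19 (log2). Whether an interval holds 1 is therefore no call, and the share of all genes whose interval leaves out 1 was not counted. The ratio of IMP2 to IgG was 1.50 (1.33 to 1.70) for Ivd, 1.45 (1.40 to 1.51) for Bckdha and 1.53 (1.33 to 1.77) for Bckdk. It was 1.82 (1.44 to 2.28) for Hibadh, from 119 counts with IMP2 and 211 with IgG, and 1.19 (1.06 to 1.32) for Acadsb. It was 1.08 (0.930 to 1.24) for Bcat2, 1.1 (0.924 to 1.30) for Mccc1, 1.01 (0.851 to 1.19) for Bckdhb and 1.01 (0.657 to 1.52) for Mccc2, intervals that hold 1. Dbt, at 0.232 (0.199 to 0.270), was the only gene of the 10 past 2-fold. In a model of both tables together, which adds libraries that chose the genes and is therefore given with no test, the log2 ratio of IMP2 to IgG was 0.30 for Ivd and 0.22 for Bckdha, against 0.59 for Ivd and 0.54 for Bckdha in the IgG table alone. It was 0.01 for Bcat2, -0.30 for Mccc1, -0.40 for Bckdhb and 0.46 for Bckdk. Over all 8965 genes 11.3% were more than 2-fold lower and 5.48% more than 2-fold higher with IMP2.

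The carboxylase pair repeated the unequal recovery seen in the dehydrogenase. Mccc1 had 142.9 CPM with IMP2 and 130.0 CPM with IgG, against 58.4 and 82.9 CPM in total RNA. Mccc2 had 25.1 CPM with IMP2 and 24.9 CPM with IgG, against 26.7 and 59.8 CPM in total RNA. Mccc1 counts per Mccc2 count were 5.69 (3.89 to 8.56) with IMP2 and 5.23 (4.22 to 6.52) with IgG, against 2.18 (1.47 to 3.30) and 1.39 (1.12 to 1.71) in total RNA. Here the IMP2 and IgG libraries overlapped, unlike the E1 subunits. The propionyl-CoA carboxylase pair showed no such split, with counting intervals that overlap in all 4 libraries. Pcca counts per Pccb count were 0.0430 with IMP2 and 0.0564 with IgG, against 0.0472 and 0.0405 in total RNA. Bckdha counts per Dbt count were 20.0 with IMP2 and 3.20 with IgG, against 1.42 and 3.31 in total RNA.

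In the IgG table the wider list had 36 of 42 genes. With IMP2 against total RNA, 0 were called higher and 1, Dbt, lower, and the median log2 ratio was 0.21 against -0.03 over all genes. Aldh6a1, which oxidizes the valine product that Hibadh makes, had 47.1 CPM with IMP2 and 41.0 CPM with IgG, against 97 and 189 CPM in total RNA. Its log2 ratio was -1.61 with IMP2, with an adjusted p of 0.0512, and -1.81 with IgG, where it was called with an adjusted p of 0.00705 (edgeR). Under upper-quartile scaling, scaling by library size alone, no filter or a filter on a mean of 5 CPM, 2 genes of the list were called lower with IMP2, and under DESeq2 0 were called with IgG.

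Across the 8 libraries of the knockout table the levels of the genes were compared as log2 CPM, as a description only, since the libraries fall into immunoprecipitates and total RNA and share their depth. Pearson r with Bcat2 was 0.962 for Ivd, 0.937 for Bckdha, 0.825 for Mccc1, 0.294 for Bckdk and -0.816 for Bckdhb. Among all other genes, levels most like those of Bcat2 were found for Smarcd2 (r = 0.973), Fbxw8 (0.962), Pccb (0.946) and D10Jhu81e (0.944). Those most like Ivd were Mipep and Wbscr16 (0.989 each), and Immt, Ldhd and Isoc2a (0.988 each). Smarcd2 encodes a chromatin remodelling subunit, Mipep is a mitochondrial peptidase and Immt organizes the cristae. Ucp1 itself was recovered at 0.28 ± 0.27 in KO and 0.72 ± 0.27 in WT (log2, SE), both below Bcat2 and Ivd.

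The 10 genes lie on 6 chromosomes, with 4 of them on chromosome 7. On GRCm38.p6, the mm10 assembly, the positions from RefSeq are 7:25629852-25658782 for Bckdha, 7:45568967-45589710 for Bcat2, 7:127904073-127909664 for Bckdk and 7:131410601-131446211 for Acadsb. Mccc1 lies at 3:35956292-36000694 and Dbt at 3:116513070-116549981. Ivd lies at 2:118861959-118882909, Hibadh at 6:52546230-52640300, Bckdhb at 9:83925111-84124240 and Mccc2 at 13:99948532-100015639.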

How the data were processed

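RNA immunoprecipitation sequencing of 12 brown fat libraries was analysed. The deposited values are whole-number read counts per RefSeq transcript, with no scaling, in a pair of tables. TopHat2 2.0.8, Cufflinks 2.1.1 and mm10 are named in the submitters' processing notes; how reads were counted, with which strand setting and annotation, and which transcripts were listed is not stated in them or in the labels. RNA was isolated with Trizol, per the labels' protocols. Every listed gene of the knockout table has at least 101 counts in each WT library.

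Transcripts without a symbol were named by accession from a RefSeq table of GRCm38.p6 (114 of 117 and 813 of 835); the 3 and 22 left unnamed held 8.65 to 29.2% and 7.39 to 15.8% of counts in the 2 tables and stayed out of library sizes and tests. One transcript per gene was kept, with those carrying a symbol first. The edgeR filter removed none of 1189 genes and left 8965 of 9378. Scaling was by TMM (trimmed mean of M-values), and counts were tested over all genes with the quasi-likelihood test of edgeR 4.0.16 (R 4.3.3), all groups of a table in 1 model with no covariate. The biological coefficient of variation was 15.3 and 25.1%, with 4 and 1 residual degrees of freedom. P-values were adjusted by Benjamini-Hochberg over the whole table, and called under 0.05. SE is the log2 ratio divided by the square root of F. Count ratios of single libraries have exact conditional 95% intervals. Scripts were tested on simulated counts. Libraries were treated as unpaired.

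The members, the gene lists and the tests were chosen with earlier results of these data known. Named genes are the members, Igf2bp1, Igf2bp2, Igf2bp3 and Ucp1 where listed (Igf2bp1 and Igf2bp3 are in neither table), up to 2 extreme members at each end of each other list described, and the 5 genes most correlated with Bcat2 and with Ivd, of which 1 is not reported here. Alternatives were other scalings, filters, DESeq2 1.42.0, summed transcripts, unnamed transcripts in library sizes, compared groups alone, both tables in 1 model, and leaving out each library. Ranking transcripts with unnamed symbols included, and taking values without 1 library of the IgG table at the dispersion of all 4, were added after seeing the data.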

Additional observations from a re-analysis of the deposited data

How the results depend on the processing

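No count of called genes among the members changed side of the threshold or moved by more than 1.5 times under any alternative run. For single members with a test in the full model, repeats with an adjusted p were compared by the call alone, and no call changed. Shifts in value or sign without a change of call were not counted there. Repeats without an adjusted p, chiefly those that left out library 15 or 20, were compared by value against the SE of the full model. Of all 538 repeats, 6 moved, all from leaving out library 15 or 20 for Dbt and Mccc2 and given above. The 538 include repeats of the KO minus WT recovery difference, whose test is not reported above. Values without a test moved in 16 of 300 repeats, mostly under upper-quartile scaling: recovery of Bckdhb was then -0.16 in KO and -0.37 in WT, and that of Bckdk 0.21 in KO and 0.36 in WT. Recovery of Mccc1 in WT was 0.63 without library 16 and 0.31 without library 21. Upper-quartile scaling moved the median of all genes to 0.16 in KO and 0.15 in WT, and library size alone moved it to 0.12 in KO, to 0.16 for IgG against total RNA and to -0.19 for IMP2 against IgG (log2). No paired analysis was possible because the labels share no replicate numbers between groups and tie no total RNA library to an immunoprecipitate. The depth limits Mccc2, with 32 counts in the IMP2 library, and the single IMP2 and IgG libraries of the IgG table limit every comparison with IgG.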

Other observations

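Relatives of the member enzymes were looked at as well. The acyl-CoA dehydrogenase family, to which Ivd and Acadsb belong, had 3 of 8 other genes listed in the knockout table. Acadvl, which starts the oxidation of very long fatty acids, was recovered at 0.74 in KO and 0.91 in WT, Acads, the short-chain enzyme, at 0.54 in KO and 0.71 in WT, and Gcdh, which acts in lysine breakdown, at -0.08 in KO and 0.08 in WT (log2). In the IgG table all 8 were listed and 0 were called by edgeR with IMP2 or with IgG against total RNA, with 0 at an unadjusted p under 0.05 in either; Acadvl was at 0.77 and Acad10 at -0.59 with IMP2.

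The pyruvate and 2-oxoglutarate dehydrogenases share the design of the branched-chain complex. Of 13 such genes, 3 were listed in the knockout table. Ogdh, the E1 of the 2-oxoglutarate complex, was recovered at 0.62 in KO and 0.49 in WT, Pdhx at 0.56 in KO and 0.39 in WT, and Pdhb at 0.50 in KO and 0.23 in WT (log2). Of the 13, 11 were listed in the IgG table and 0 were called by edgeR. At an unadjusted p under 0.05, 2 were higher with IMP2, where 2.60% of all 8965 genes were. With IgG 0 were higher at that level, where 5.84% of all genes were. The 2 higher with IMP2 were Ogdh and Pdp2, a pyruvate dehydrogenase phosphatase. Ogdh was at 4700 CPM with IMP2, 3228 CPM with IgG and 2540 and 1966 CPM in total RNA. Pdp2 was at 52.6 CPM with IMP2, 41.0 CPM with IgG and 30.2 and 20.8 CPM in total RNA.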
